A study of Mus musculus with 3 samples.

Results

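A set of 7 mature mouse miRNAs known from immune cells was followed across 3 small-RNA libraries: miR-146a-5p, miR-146b-5p, miR-155-5p, miR-142a-3p, miR-142a-5p, miR-223-3p and miR-150-5p. They were chosen by name, and all 7 of 7 were among the 1915 entries of each library. The libraries came from exosomes of B16 cells, from exosomes of JB6 cells and from B16 cells themselves. B16 is a melanoma line of mouse skin, labelled as strain C57BL/6J, and JB6 is a line of mouse skin that the labels give as normal and as BALB/c. Exosomes are small vesicles that cells shed into their medium, and these had been spun down by ultracentrifugation. There was no treatment, no JB6 cell library was analysed here, and every group was 1 library, so differences below have no replicates behind them and intervals express counting error alone.

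These miRNAs fall into 2 kinds by how their genes are switched on. miR-146a and miR-155 are induced through NF-kB, the transcription factor behind inflammatory gene programmes. miR-146a in turn represses Traf6 and Irak1, adaptors of Toll-like receptor signalling, and so acts as a brake, whereas miR-155 favours inflammatory responses. miR-146b is the paralogue of miR-146a and is placed with this NF-kB-driven set of 3 here. The other 4 are markers of blood cells: both arms of miR-142 are made throughout the blood lineage, miR-223-3p is a miRNA of neutrophils and macrophages, and miR-150-5p is a miRNA of mature lymphocytes. Neither line is of blood origin.

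A miRNA recognises its targets mainly through its seed, bases 2 to 8 from the 5′ end, so the mature sequences show which of these miRNAs could share targets. The RefSeq miRNA table for GRCm38.p6 held the mature sequence of 6 of the 7, with the seed in capitals here:
miR-146a-5p: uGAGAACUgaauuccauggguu
miR-146b-5p: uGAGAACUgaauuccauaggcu
miR-155-5p: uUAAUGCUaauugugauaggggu
miR-142a-3p: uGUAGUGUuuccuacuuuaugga
miR-142a-5p: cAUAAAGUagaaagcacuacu
miR-223-3p: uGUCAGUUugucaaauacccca
The miR-146 pair has 1 seed in common, and no other mature miRNA of that table carries it. The seeds of miR-155-5p, miR-142a-3p, miR-142a-5p and miR-223-3p each occur in no other entry of the table.

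The members of the miR-146 pair are both 22 bases long and differ at 2 positions, both outside the seed. Counted from the 5′ end of miR-146a-5p, the changes to miR-146b-5p are G18A and U21C, shown in capitals:
miR-146a-5p: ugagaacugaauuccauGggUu
miR-146b-5p: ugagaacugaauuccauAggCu
The mismatches that the authors allowed, and how they placed reads that fit both entries, are not stated in the labels or files. The split of reads between these near-identical entries is therefore uncertain, and their sum is given beside it.

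Their genes lie apart. On GRCm38.p6, Mir146 (the gene of miR-146a) is at chr11:43374397-43374461 on the minus strand, outside any other GENCODE gene. Mir146b is at chr19:46342762-46342870 on the plus strand, in an intron of the protein-coding gene Mfsd13a. Mir155 is at chr16:84714140-84714204, within an exon of its long non-coding host Mir155hg. Mir142 is at chr11:87756864-87756927, in an intron of the non-coding Mir142hg. Mir223 is at chrX:96242817-96242926, within an exon of the non-coding transcript F630028O10Rik.

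Depth sets what can be seen of the scarcer members. The libraries held 45677 miRNA reads in B16 exosomes, 4495956 in JB6 exosomes and 7925726 in B16 cells. The totals that the authors scaled by were 847694, 5626936 and 8721363 in that order, so miRNA reads were a far smaller part of B16 exosomes. No count between 1 and 9 was listed in any of them, so a listed 0 stands for at most 9 reads, or 197 RPM (reads scaled to 1000000 miRNA reads) in B16 exosomes, 2.002 RPM in JB6 exosomes and 1.14 RPM in B16 cells. Of the markers used to check the labels, miR-211-5p of melanocytes had 83 reads in B16 exosomes, a listed 0 in JB6 exosomes and 21080 reads in B16 cells. The other melanocyte marker, miR-204-5p, had a listed 0 in B16 exosomes, 14 reads in JB6 exosomes and 60 in B16 cells. At the share of the cells, B16 exosomes would have held 0.346 reads of miR-204-5p, too few to be listed. Of the skin-epithelium markers, miR-205-5p was at 0 in all 3 libraries. miR-203-3p was at 0 in B16 exosomes and had 13 reads in JB6 exosomes and 47 in B16 cells, and miR-200c-3p was at 0 in both exosome libraries and had 64 reads in B16 cells. Summed, these markers had 2.89 RPM in JB6 exosomes and 14 RPM in the melanoma cells, so they do not mark the JB6 library as epithelial. The liver miRNA miR-122-5p led JB6 exosomes with 25.1% of reads.

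The miR-146 pair made up nearly all reads of the 7 miRNAs in every library. Of the 286 reads on the 7 in B16 exosomes, all 286 were miR-146. In JB6 exosomes the 7 had 76194 reads, of which 76037 were miR-146, and in B16 cells 32777, of which 32392 were miR-146. miR-155-5p was listed in the deep libraries, miR-150-5p was scarce there, the miR-142a arms were listed in JB6 exosomes alone, and miR-223-3p was listed nowhere. Only miR-146a-5p and miR-146b-5p, 2 of the 7, were above 0 in all 3 libraries.

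**Figure D1:**
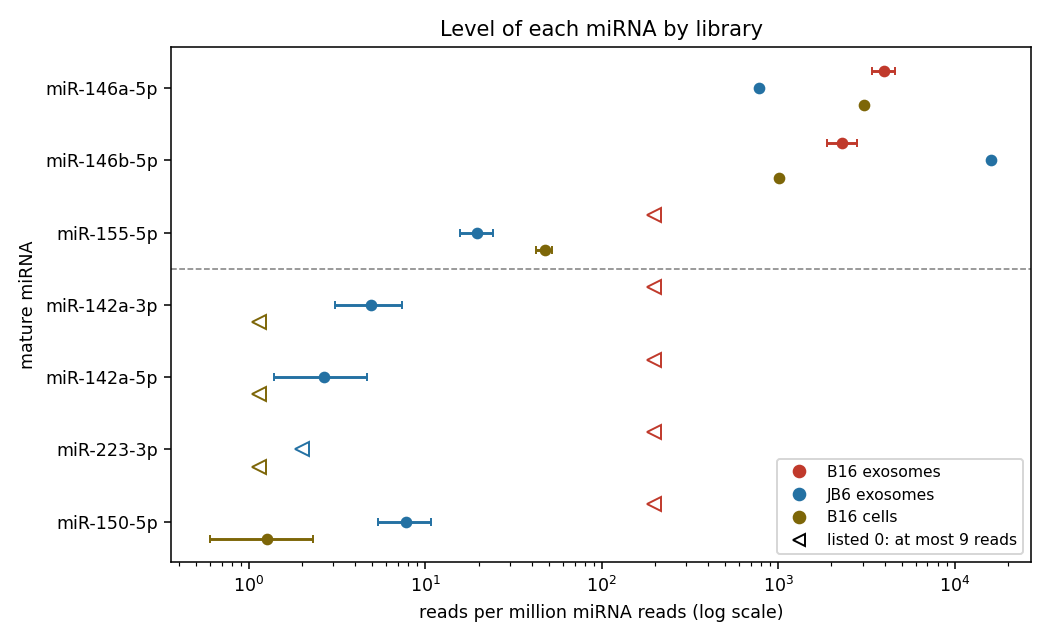
RPM (x axis, log scale) of the 7 miRNAs (y axis) in B16 exosomes, JB6 exosomes and B16 cells, with exact 95% intervals. Open triangles mark a listed 0 at its upper limit of 9 reads, and the dashed line parts the NF-kB-driven set above from the blood-cell set below. miR-146b-5p stands at 16133 RPM in JB6 exosomes, while all triangles of B16 exosomes stand at 197 RPM.

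miR-146a-5p, the NF-kB-induced brake on Toll-like receptor signalling, had 181 reads in B16 exosomes, 3504 in JB6 exosomes and 24373 in B16 cells. As a level this was 3963 RPM in B16 exosomes (exact 95% interval 3407 to 4582), 779 RPM in JB6 exosomes (754 to 806) and 3075 RPM in B16 cells (3037 to 3114). By share of miRNA reads the B16 libraries were thus the high ones and JB6 exosomes the low one, with no overlap between any of the intervals, but DESeq2 size factors turned the order of JB6 exosomes and each B16 library round.

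miR-146b-5p had the other order, with 105 reads in B16 exosomes, 72533 in JB6 exosomes and 8019 in B16 cells. Its level was 2299 RPM in B16 exosomes (1881 to 2782), 16133 RPM in JB6 exosomes (16017 to 16250) and 1012 RPM in B16 cells (990 to 1034). JB6 exosomes were far above both B16 libraries. It ranked 11 among the 389 miRNAs listed in JB6 exosomes, against 48 of 149 in B16 exosomes and 80 of 559 in B16 cells, whereas miR-146a-5p ranked 61, 37 and 45 in the same libraries.

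Within each library the split between the paralogues does not depend on how libraries are scaled to each other. miR-146a-5p was 63.3% of the pair in B16 exosomes (57.4 to 68.9), 4.61% in JB6 exosomes (4.46 to 4.76) and 75.2% in B16 cells (74.8 to 75.7). So miR-146a-5p was the commoner of the pair in both B16 libraries, by 1.72-fold in the exosomes (1.35 to 2.21) and 3.04-fold in the cells (2.96 to 3.12). In JB6 exosomes miR-146b-5p was the commoner, by 20.7-fold (20.01 to 21.4).

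**Figure D2:**
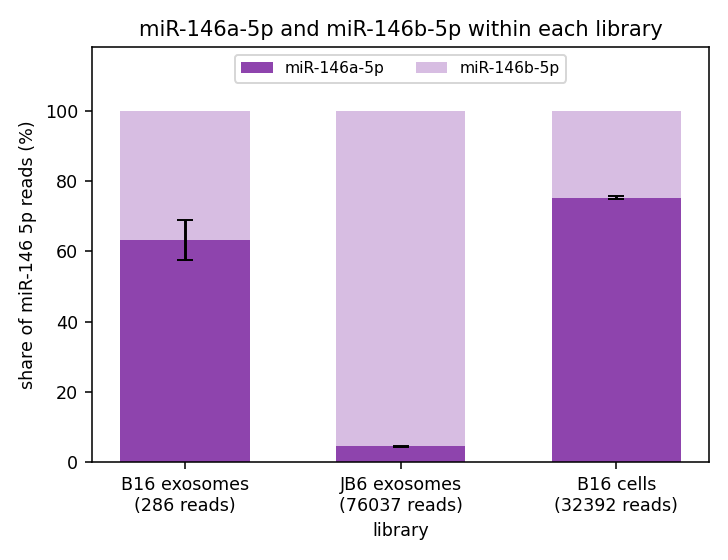
Share of the miR-146 5p reads (y axis, percent) that lay on miR-146a-5p (dark) and on miR-146b-5p (light) in each library (x axis, with the number of reads), with exact 95% intervals. miR-146a-5p holds 63.3% in B16 exosomes and 75.2% in B16 cells but 4.61% in JB6 exosomes.

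The odds of a miR-146 read being miR-146a-5p rather than miR-146b-5p were set between libraries as a conditional odds ratio. It was 0.567 for B16 exosomes against B16 cells (0.443 to 0.729), so the vesicles of the melanoma line held relatively more miR-146b-5p than their cells. It was 35.7 for B16 exosomes against JB6 exosomes (27.8 to 45.9) and 0.0159 for JB6 exosomes against B16 cells (0.0152 to 0.0166). The 2 vesicle libraries thus differed from each other far more than the B16 vesicles did from the B16 cells. Cell line, strain and disease state change together between B16 and JB6 and cannot be told apart, nor can line and vesicle in JB6 exosomes against B16 cells. Misplaced reads between the 2 entries would move these shares, and this was not tested.

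Since both carry the seed GAGAACU, their summed reads stand for that seed among the 1679 mature miRNAs searched, fewer than the 1915 entries of each library. The sum was 6261 RPM in B16 exosomes, 16912 RPM in JB6 exosomes and 4087 RPM in B16 cells. Its share in B16 exosomes was 1.53 times that in B16 cells (1.36 to 1.72), but 0.756 times with TMM and 0.0908 times, called lower, under the authors' totals, so that direction is not settled. It was 2.70-fold lower in B16 exosomes than in JB6 exosomes (2.40 to 3.04) and 4.14-fold higher in JB6 exosomes than in B16 cells (4.08 to 4.19). JB6 exosomes were the highest in the seed under all 5 scalings tried, through miR-146b-5p, which held 95.4% of it there (95.2 to 95.5).

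miR-155-5p, read from the transcript Mir155hg, was listed at 0 in B16 exosomes, with 88 reads in JB6 exosomes and 375 in B16 cells. This was at most 197 RPM in B16 exosomes, 19.6 RPM in JB6 exosomes (15.7 to 24.1) and 47.3 RPM in B16 cells (42.6 to 52.4). It was mid-ranked, at 207 of 389 in JB6 exosomes and 222 of 559 in B16 cells. At the share of the cells, B16 exosomes would have held 2.16 reads of it, and at the share of JB6 exosomes 0.894, both too few to be listed. Its absence from the B16 exosome list therefore could not be told from an equal share at this depth.

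The blood-cell set was at or near the limit of detection. miR-150-5p, the lymphocyte miRNA, had a listed 0 in B16 exosomes, 35 reads in JB6 exosomes and 10 in B16 cells. Its level was 7.78 RPM in JB6 exosomes (5.42 to 10.8) and 1.26 RPM in B16 cells (0.605 to 2.32), where 10 is the smallest count listed. miR-142a-3p and miR-142a-5p were at 0 in B16 exosomes and in B16 cells, and had 22 and 12 reads in JB6 exosomes, which is 4.89 RPM (3.07 to 7.41) and 2.67 RPM (1.38 to 4.66). miR-223-3p was at 0 in all 3, which limits it to 197 RPM in B16 exosomes, 2.002 RPM in JB6 exosomes and 1.14 RPM in B16 cells. In JB6 exosomes the intervals of miR-150-5p and miR-142a-3p overlapped, as did those of the 2 miR-142a arms, and the interval of miR-142a-5p reached below the limit for miR-223-3p, so the order among these neighbours is not resolved. In B16 cells the interval of miR-150-5p took in the limit for the 3 members at 0.

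**Figure D3:**
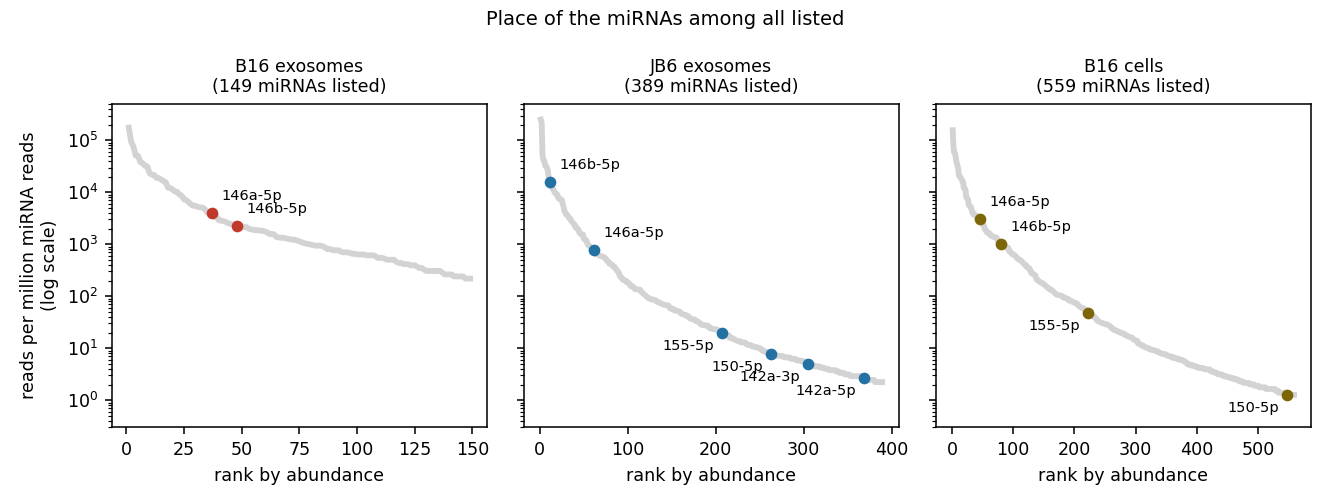
RPM (y axis, log scale) against rank by abundance (x axis) of all miRNAs listed in B16 exosomes, JB6 exosomes and B16 cells (grey line), with the listed members of the 7 marked. The miR-146 members lie in the upper part of each curve, miR-155-5p mid-curve at rank 207 of 389 and 222 of 559, and miR-150-5p at rank 548 of 559 in B16 cells.

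Summed, the NF-kB-driven set of 3 had 6261 RPM in B16 exosomes (5559 to 7028), 16932 RPM in JB6 exosomes (16813 to 17052) and 4134 RPM in B16 cells (4090 to 4179). The blood-cell set of 4 had no listed read in B16 exosomes, 69 reads or 15.3 RPM in JB6 exosomes and 10 reads or 1.26 RPM in B16 cells. Allowing 9 reads for each listed 0, the blood-cell set could hold at most 36 reads in B16 exosomes, 78 in JB6 exosomes and 37 in B16 cells. The NF-kB-driven set was then at least 7.94-fold above it in B16 exosomes, at least 976-fold in JB6 exosomes and at least 886-fold in B16 cells. That gap rested on miR-146. In JB6 exosomes 95.3% of the NF-kB-driven set was miR-146b-5p, placed in the set as the paralogue of miR-146a. In JB6 exosomes the 88 reads of miR-155-5p alone were not apart from the at most 78 of the summed blood-cell set beyond counting error, at a ratio of 1.13 (0.822 to 1.55). In B16 cells miR-155-5p was at least 10.1-fold above that set (7.22 to 14.6). miRNAs differ in how readily their ends are ligated into a library, so reads of different miRNAs are not exact measures of relative amount.

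Libraries were then set against each other. The call of a higher or lower miRNA needed a ratio of its shares of all miRNA reads of at least 2-fold and an exact 95% interval without 1, among miRNAs with 30 or more reads over the pair. B16 exosomes against B16 cells compares the vesicles of the melanoma line with the cells that shed them. miR-146b-5p was 2.27-fold higher in the exosomes (1.86 to 2.75), and the ratio of miR-146a-5p was 1.29 (1.11 to 1.49), within 2-fold. Of the 3 members with enough reads 1 was higher, 0 were lower, 1 was neither and miR-155-5p was not resolved. Of all 422 miRNAs tested, 8.53% were higher, 7.82% lower and 63.3% not resolved. The median ratio of the members listed in both libraries was 1.71, against 1.02 over all 144 miRNAs listed in both. Being listed in both needed at least 10 reads in the shallow B16 exosomes, so both medians lean to entries high there. With edgeR's TMM factors the ratio of miR-146b-5p was 1.12 and the call was lost, and that of miR-146a-5p turned to 0.636. Under the authors' totals both turned lower, at 0.135 and 0.0764.

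B16 exosomes against JB6 exosomes sets vesicles of the melanoma line against those of the normal line. miR-146b-5p was 7.02-fold lower in B16 exosomes (5.80 to 8.58), and it was lower under all 5 scalings tried. miR-146a-5p was 5.08-fold higher (4.35 to 5.91), but its ratio was 0.985 with TMM, 0.78 with DESeq2 size factors and 0.343 under the authors' totals, so its direction is not settled. Of the 4 members with enough reads 1 was higher, 1 was lower and 2, miR-155-5p and miR-150-5p, were not resolved. Of all 300 tested, 31.3% were higher, 11.7% lower and 48.7% not resolved. At equal shares B16 exosomes would have held 737 reads of miR-146b-5p and 35.6 of miR-146a-5p, where 105 and 181 were listed. The median ratio of these 2 members was 0.851, between a value well above 1 and a value well below it, so it describes neither. Over all 131 miRNAs listed in both it was 6.14. To be listed in both, an entry needed at least 10 reads in B16 exosomes, the far shallower library. This favours entries high there, so 6.14 is not a neutral background, here or for the lists below.

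JB6 exosomes against B16 cells is the comparison of the deep libraries, in which line and source of RNA both change. miR-146b-5p was 15.9-fold higher in JB6 exosomes (15.6 to 16.3), and between 14.02-fold and 95.3-fold higher over the 5 scalings. miR-150-5p was 6.17-fold higher (2.99 to 13.97), on 35 and 10 reads, and stayed higher under the 5 scalings. miR-146a-5p was 3.95-fold lower (3.81 to 4.09) and miR-155-5p 2.42-fold lower (1.91 to 3.08). Neither was called lower with TMM, at ratios of 0.646 and 1.05. With DESeq2 factors both turned above 1: miR-146a-5p had a ratio of 1.51, and miR-155-5p was called higher at 2.47 (1.94 to 3.13), so that 3 members were higher and 0 lower. Of all 501 tested, 204 were then higher and 134 lower. The lower call of miR-155-5p was also lost without the 10 most abundant miRNAs, at 0.656, so its direction is not settled. Of the 4 members with enough reads 2 were higher and 2 lower, beside 26.1% higher and 60.7% lower of all 501 tested. The median ratio of these members was 1.60, against 0.361 over the 305 miRNAs listed in both. This median lay between 2 members well above 1 and 2 well below it, so it describes none of them. For the NF-kB-driven set, which leaves out miR-150-5p, the median was 0.414, close to 0.361. Leaving out miR-146b-5p instead would give the same middle ratio, 0.414, that of miR-155-5p. The contrast of 1.60 with 0.361 thus rested on miR-146b-5p and miR-150-5p alike, the latter with its 35 and 10 reads. miR-142a-3p had too few reads for the rule. With 22 reads against a listed 0, taken as 9, its ratio was at least 4.31 (1.91 to 10.6). miR-142a-5p, with 12 reads, was not resolved, since the same ratio of 2.35 had an interval that took in 1 (0.909 to 6.32).

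**Figure D4:**
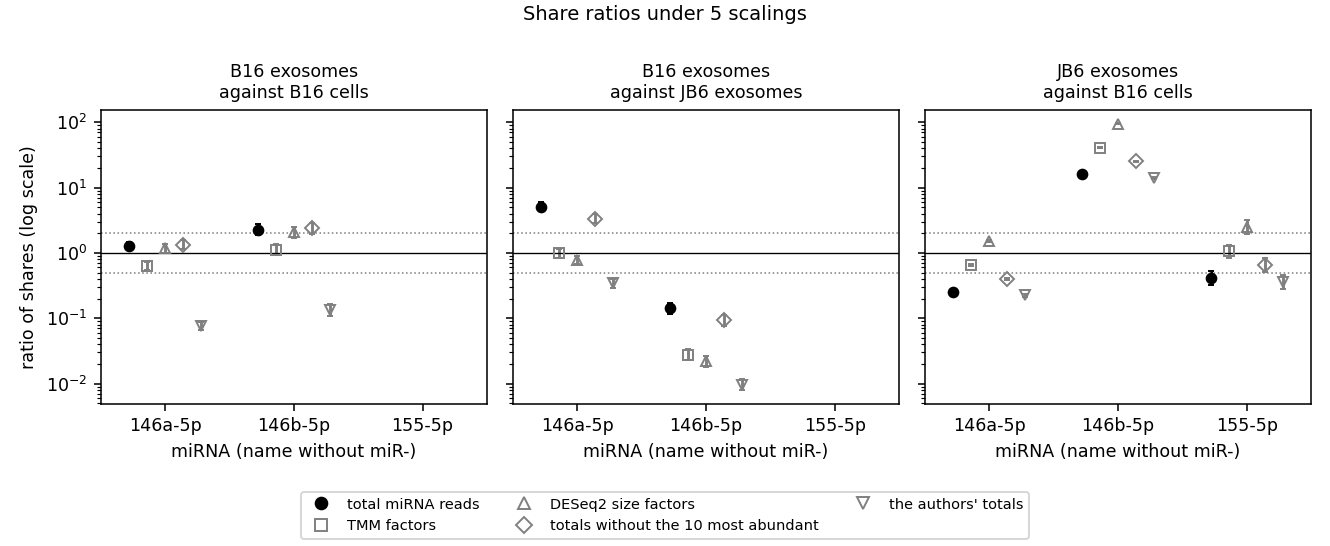
Ratio of shares (y axis, log scale) of miR-146a-5p, miR-146b-5p and miR-155-5p in the 3 comparisons, scaled to total miRNA reads (filled) or in 4 other ways (open), with exact 95% intervals and dotted lines at 2-fold. miR-155-5p is drawn for JB6 exosomes against B16 cells alone because it is at 0 in B16 exosomes. All 5 points of miR-146b-5p lie beyond the lower dotted line in B16 exosomes against JB6 exosomes and beyond the upper one in JB6 exosomes against B16 cells, while those of miR-146a-5p lie on both sides of 1 in each comparison.

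Each hairpin is cut into 2 arms, of which 1 is usually kept, so the partner arms were read too. The miR-146 hairpins are shown with both annotated arms in capitals, the 5p arm first:
Mir146: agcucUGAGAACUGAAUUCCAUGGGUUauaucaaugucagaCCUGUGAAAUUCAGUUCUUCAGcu
Mir146b: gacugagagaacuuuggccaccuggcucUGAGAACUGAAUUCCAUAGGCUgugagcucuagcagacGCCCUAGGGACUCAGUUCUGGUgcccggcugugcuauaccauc
Unlike the 5p arms, the 3p arms are of clearly different sequence. miR-146b-3p was at 0 in B16 exosomes and had 24 reads in JB6 exosomes and 20 in B16 cells, while miR-146a-3p was at 0 in all 3 libraries. In B16 cells the scarcer 5p arm of the pair therefore came with the listed 3p arm. miR-146b-5p exceeded its 3p arm 3022-fold in JB6 exosomes (2031 to 4717) and 401-fold in B16 cells (259 to 657). miR-146a-5p exceeded its own at least 20.1-fold in B16 exosomes, 389-fold in JB6 exosomes and 2708-fold in B16 cells.

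The arms of the other hairpins were sparser. miR-155-5p exceeded miR-155-3p 26.8-fold in B16 cells (15.8 to 49.5), on 375 and 14 reads, and at least 9.78-fold in JB6 exosomes, where the 3p arm was at 0. The 22 reads of miR-142a-3p and 12 of miR-142a-5p in JB6 exosomes gave a ratio of 1.83 (0.869 to 4.06), so neither arm was shown to prevail. miR-142b, which is read from the opposite strand over miR-142a-3p at chr11:87756906-87756925, was at 0 in all 3 libraries. The labels and files do not state whether the counting used strand. miR-150-3p was also at 0 in all 3.

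At Mir223 the arm that marks myeloid cells was missing and its partner was not. miR-223-5p had 58 reads in JB6 exosomes, or 12.9 RPM (9.80 to 16.7), and was at 0 in B16 exosomes and B16 cells, while miR-223-3p was at 0 throughout. The 5p arm was thus at least 6.44-fold above the 3p arm in JB6 exosomes, and its share was at least 11.4-fold higher there than in B16 cells. The hairpin carries both arms, again in capitals with the 5p arm first:
Mir223: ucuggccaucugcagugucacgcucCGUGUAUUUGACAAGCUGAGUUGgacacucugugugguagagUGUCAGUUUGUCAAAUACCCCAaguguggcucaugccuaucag

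Other miRNAs of the same 2 kinds were counted from lists chosen by their known roles. Of 8 further miRNAs induced by Toll-like receptor and NF-kB signalling in myeloid cells, 7 had enough reads in JB6 exosomes against B16 cells, with 2 higher, miR-221-3p and miR-222-3p, and 5 lower, beside 26.1% higher and 60.7% lower of all miRNAs tested. miR-222-3p was 9.62-fold higher (8.80 to 10.5) and higher under all 5 scalings. miR-21a-5p, raised in many inflamed tissues and tumours, was 6.55-fold lower (6.49 to 6.62), but with DESeq2 factors its ratio was 0.912 and the call was lost. In B16 exosomes against B16 cells 2 of the 7 tested were higher, again miR-221-3p and miR-222-3p, 0 were lower, 3 were neither and 2 not resolved, beside 8.53% higher and 7.82% lower of all. Both of those calls were lost with TMM, at ratios of 1.34 and 1.63, and both miRNAs were lower under the authors' totals, at 0.161 and 0.196. In B16 exosomes against JB6 exosomes 3 of the 6 tested were higher, 1 was lower, 1 was neither and 1 not resolved, beside 31.3% higher and 11.7% lower of all. With TMM or DESeq2 factors 2 were higher and 2 lower. The counts over all 300 tested moved too, to 61 higher and 97 lower with TMM and 57 and 109 with DESeq2. The median ratio of those listed in both libraries was 1.39 in B16 exosomes against B16 cells, 4.07 in B16 exosomes against JB6 exosomes and 0.111 in JB6 exosomes against B16 cells, beside 1.02, 6.14 and 0.361 over all miRNAs listed in both.

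Of 9 further blood-cell miRNAs 7 were tested in JB6 exosomes against B16 cells, with 3 higher and 4 lower, beside 26.1% and 60.7% of all tested. The higher ones were red-cell miRNAs. The entries for miR-486a-5p and miR-486b-5p share 1 count in each library and are uncertain as separate ones, and both were 380-fold higher (324 to 449), and miR-451a was 82.2-fold higher (47.7 to 155.2). The 4 lower ones, miR-342-3p, miR-181a-5p, miR-126a-3p and miR-126a-5p, are found in lymphoid, platelet or endothelial cells, and miR-342-3p was 11.0-fold lower (9.43 to 13.0). Most of these lower calls rest on the scaling. With TMM miR-181a-5p and miR-126a-3p were within 2-fold, at 0.944 and 0.864, and with DESeq2 factors they were called higher, at 2.22 and 2.03, while miR-342-3p came within 2-fold at 0.541. miR-126a-5p was called lower with all of these. In B16 exosomes against B16 cells 1 of 6 tested, miR-342-3p, was higher, 2 were neither and 3 not resolved, beside 8.53% higher and 7.82% lower of all. With TMM 0 were higher and 2 lower, and of all 422 tested 16 were then higher and 93 lower. In B16 exosomes against JB6 exosomes 3 of 6 were higher, 2 were lower and 1 was not resolved, beside 31.3% higher and 11.7% lower of all. With TMM or DESeq2 factors 1 was higher and 5 lower. Of all 300 tested, 61 were then higher and 97 lower with TMM, and 57 and 109 with DESeq2. These list counts under other scalings were added after the data were seen. The median ratio of the list over entries listed in both libraries was 0.774 for B16 exosomes against B16 cells. It was 2.17 between the vesicle libraries and 0.371 between the deep libraries, beside 1.02, 6.14 and 0.361 over all miRNAs listed in both.

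In the deep libraries the share of the blood-cell set was at least 3.29-fold higher in JB6 exosomes than in B16 cells (2.17 to 5.04), taking 9 reads for each listed 0 of the cells, and markers of several other tissues were higher there too. Red-cell markers (miR-451a, miR-486a-5p and miR-144-3p) were 0 of 3 listed in B16 exosomes, 3 of 3 with a summed 7478 RPM in JB6 exosomes, and 2 of 3 with 20.9 RPM in B16 cells. In JB6 exosomes miR-486a-5p held 7339 RPM of the sum, miR-451a 135 RPM and miR-144-3p 4.45 RPM on 20 reads. The other arm, miR-144-5p, was at 0 in all 3 libraries. Muscle markers (miR-206-3p, miR-1a-3p and miR-133a-3p) were 0 of 3 listed in B16 exosomes, 3 of 3 with 3707 RPM in JB6 exosomes, and 1 of 3 with 1.39 RPM in B16 cells. In JB6 exosomes miR-206-3p alone held 3696 RPM of the sum. There miR-1a-3p and miR-133a-3p were near the limit of detection, with 21 and 25 reads. At JB6 exosome shares, B16 exosomes would have held 0.213 and 0.254 reads of these, 0.203 of miR-144-3p and 6.16 of miR-451a. For these markers the 0 in B16 exosomes could not be told from an equal share. For miR-486a-5p and miR-206-3p 335 and 169 reads would have been held. The liver marker miR-122-5p had 525 RPM in B16 exosomes, 251231 RPM in JB6 exosomes and 53.1 RPM in B16 cells. The part of these other tissues in the levels of the blood-cell set, and in that of miR-146b-5p, was not tested.

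The entries most alike in level were found over the 2 deep libraries, as those with the smallest value of the larger log2 difference in RPM among 307 other miRNAs listed in both. With 2 libraries this is a description of level only. For miR-146a-5p they were miR-106b-3p, miR-423-3p and miR-744-5p, with largest log2 differences of 0.29, 0.41 and 0.46. For miR-146b-5p they were let-7d-3p, miR-320-3p and miR-1198-5p at 0.79, 1.03 and 1.10, so none of the 307 came within 0.79. For miR-155-5p they were miR-574-3p, miR-183-5p and miR-877-3p at 0.21, 0.33 and 0.67. For miR-150-5p they were miR-134-5p, miR-1231-5p and miR-6945-3p at 0.38, 0.49 and 0.70.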

How the data were processed

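Small RNA of B16 exosomes, JB6 exosomes and B16 cells was sequenced, 1 library each, after ultracentrifugation of exosomes and Trizol extraction, per the labels' protocols. Per the submitters' processing notes, bcl2fastq, BWA and the build mm10 were used. Versions, annotation release, strand and treatment of multiply matching reads: not given in the sources used here. The deposited files give a read count for each mature miRNA, not normalized, with no value from 1 to 9, and an RPM value that the authors computed, which equals the count times 1 constant per file.

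Shares of total miRNA reads, exact (Clopper-Pearson) 95% intervals and conditional share ratios were computed in Python 3.11.15 with SciPy 1.17.1. Reads carry no molecular identifiers, so intervals cover counting error only. A listed 0 was set to 9 reads and gives a bound. A bound that did not meet the call rule (30 reads over the pair, 2-fold, interval without 1) was called not resolved. With 1 library per group no test across libraries was run. Calls were made over all miRNAs. A check on simulated counts, drawn with counting error only, scored intervals and calls of changed entries listed in both libraries. Bounds from a listed 0 were not scored there. Scalings tried were TMM (edgeR 4.0.16), DESeq2 1.42.0 size factors, totals that leave out each library's 10 most abundant entries, and the totals behind the deposited RPM. Sequences and coordinates come from RefSeq tables on GRCm38.p6, with overlapping genes from GENCODE M21. All 7 members are named, with the other arms of their hairpins, those list members that a count turns on, and the 3 most alike entries. The members and lists were chosen with earlier results of these data known.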

Additional observations from a re-analysis of the deposited data

How the results depend on the processing

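The split of the miR-146 pair within a library is free of scaling. The 3p arms could not settle it, as miR-146b-3p had only 24 reads in JB6 exosomes and 20 in B16 cells, and miR-146a-3p was at 0. Their own share was at most 27.3% miR-146a-3p in JB6 exosomes and at most 31.0% in B16 cells. The 5p share of miR-146a was 4.61% and 75.2%, so in B16 cells the arms differ, and why was not tested. miR-146b gave 3022 reads of its 5p arm per 3p read in JB6 exosomes and 401 in B16 cells. These values rest on the same uncertain placing of 5p reads. Leaving miR-146a-5p out of the NF-kB-driven set took its ratio in B16 exosomes against B16 cells to 2.17, now called higher. Leaving out miR-146b-5p reversed the set to 4.96 in B16 exosomes against JB6 exosomes and to 0.256 in JB6 exosomes against B16 cells.

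In B16 exosomes against B16 cells, TMM and the authors' totals gave ratios of 0.636 and 0.0764 for miR-146a-5p, 1.12 and 0.135 for miR-146b-5p, 0.756 and 0.0908 for their sum and 0.747 and 0.0898 for the set. Under the authors' totals miR-155-5p was lower too, at most 0.247. An interval bound of at least 2-fold ended the call of miR-146b-5p at 2.27. Members called higher then numbered 0, as with TMM and the authors' totals, and 3 were lower under the last. Of all miRNAs, 36 were higher and 33 lower, against 16 and 93 with TMM, 9 and 257 under the authors' totals and 23 and 14 with the stricter bound.

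In B16 exosomes against JB6 exosomes, miR-146a-5p had ratios of 0.985 with TMM, 0.78 with DESeq2 and 0.343 under the authors' totals. Members called higher were then 0 in each, and 2 were lower under the authors' totals. Of all miRNAs, 94 were higher and 35 lower, against 61 and 97 with TMM, 57 and 109 with DESeq2, then 40 and 153 by the authors' totals.

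In JB6 exosomes against B16 cells, miR-146a-5p was 0.646 with TMM and 1.51 with DESeq2, and miR-155-5p 1.05 and 2.47. Members called lower were 0 with both, and 1 without the most abundant miRNAs or with the stricter bound, where miR-155-5p left the rule. A minimum of 100 reads left 1 member higher. Of all miRNAs, 131 were higher and 304 lower, against 204 higher and 134 lower with DESeq2 and 202 lower with TMM. The further blood-cell list, an alternative added after the data were seen, had 5 higher and 1 lower with DESeq2.

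Every log2 ratio moved with TMM, DESeq2 and the authors' totals by -1.02, -0.13 and -4.08 in the first comparison, -2.37, -2.70 and -3.89 in the second, and 1.35, 2.58 and -0.19 in the third. The totals behind the deposited RPM were 847694 in B16 exosomes, 5626936 in JB6 exosomes and 8721363 in B16 cells. The miRNA reads were 45677, 4495956 and 7925726, so they were a far smaller part of that total in B16 exosomes. The shift under the authors' totals is the arithmetic result of this. What the other reads were, and why TMM and DESeq2 factors differ, was not tested. Of 12 arm shares, 8 moved beyond their interval with a listed 0 taken as 0. With 45677 reads in B16 exosomes, a lower call from a listed 0 needed 3124 reads in B16 cells or 1772 in JB6 exosomes, above the counts of all members but the miR-146 pair. At a minimum of 100 reads miR-150-5p, and miR-155-5p in the second comparison, gave no value. No paired analysis was possible because each group has 1 library.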
